A study of Mus musculus with 2 samples.

Results

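The BAFF, APRIL and CD40 axis comprises the receptors Tnfrsf13b (TACI), Tnfrsf13c (BAFF receptor), Tnfrsf17 (BCMA) and Cd40 and the ligands Tnfsf13b (BAFF), Tnfsf13 (APRIL) and Cd40lg (CD40 ligand). These 7 genes were chosen by symbol, and each matched 1 of the 32285 genes listed in both count matrices. BAFF is a survival factor of mature B cells that acts mainly through the BAFF receptor, while TACI and BCMA bind both BAFF and APRIL. BCMA is known for its part in the survival of plasma cells, and TACI for class switching, T-independent responses and restraint of B cell numbers. CD40 on B cells and antigen-presenting cells receives help from CD40 ligand, which is carried mainly by Cd4+ T cells.

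Immune cells isolated from the spleens of C57BL/6 mice had been sequenced in droplets as 3′ cDNA tags (10x Genomics Chromium). The CKO library came from mice with a conditional knockout of RPA1, the large subunit of the single-stranded DNA binding protein replication protein A, and the WT library from mice without it. The labels used here give neither the Cre driver, the deleted exons, the age, the sex nor the number of animals pooled in a library. There was 1 library per genotype, so no test between genotypes was possible, no p-value is given, and a difference between the libraries cannot be told apart from a difference between animals or preparations.

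The unit of measurement is the unique molecular identifier (UMI), a tag that counts 1 captured transcript. A level is given as CPM, the UMIs of a gene over all UMIs summed in a class of cells, times 1000000, with an exact Poisson 95% interval. Clopper-Pearson 95% intervals were used for shares of cells and exact conditional binomial 95% intervals for CKO over WT ratios, and these intervals, like the floors of 3 counts, cover counting error only. CPM values were not compared between genes, since 3′ tags are captured unequally from different transcripts.

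The CKO library held 12958 barcodes with a median of 4616 UMIs, and the WT library held 13291 barcodes with a median of 5355 UMIs. After the cell filter and removal of likely doublets, 11317 CKO and 11285 WT cells were retained, and 36 barcodes occurred in both libraries. A cell joined a class, named with the ending "-like", when at least 3 of the listed markers of that class had a UMI and fewer than 3 of any other lineage did. As an exception, a cell with at least 3 B-like and at least 3 plasma cell markers was counted as plasma cell-like. No member of the axis served as a marker. Since these names were rebuilt from the counts, values can differ from those of the study for that reason alone. The labelled tissue, immune cells of the spleen, was matched by B-like cells as the largest class, 8370 CKO cells (74.0% of the retained cells) and 6292 WT cells (55.8%), with medians of 4257 and 4527 UMIs per cell. T-like cells were 714 in the CKO library (6.31%) and 3499 in the WT library (31.0%), and NK-like cells were 870 (7.69%) and 366 (3.24%). Cells at the edge of the gates, with exactly 3 markers, made up 18 of the CKO and 14 of the WT B-like cells and 21 of the CKO and 39 of the WT T-like cells, but 27 of 53 CKO and 26 of 59 WT conventional dendritic cell-like cells.

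Rpa1, the targeted gene, stood at 33.6 CPM in all retained CKO cells and 37.3 CPM in all retained WT cells, a ratio of 0.901 (0.851 to 0.954). In T-like cells the level of Rpa1 was 34.9 CPM in CKO and 43.1 CPM in WT (ratio 0.810, 0.680 to 0.960). In B-like cells it was 32.8 CPM in CKO and 34.4 CPM in WT (ratio 0.953, 0.881 to 1.03). A 3′ tag outside a deleted part does not report the deletion, so these values do not check the genotype labels.

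The promoters of 3 receptors are shown because the transcripts of these receptors divided the B lineage in the results that follow. Tnfrsf13c was detected mainly in B-like cells, Tnfrsf17 mainly in plasma cell-like cells, and Tnfrsf13b in both and in myeloid classes. Each window, from RefSeq on GRCm38.p6, runs 5′ to 3′ on the strand of the gene from 250 bases before to 50 bases after the annotated start. The windows lie at chr11:61126505-61126804 on the plus strand for Tnfrsf13b, chr15:82224331-82224630 on the minus strand for Tnfrsf13c and chr16:11313559-11313858 on the plus strand for Tnfrsf17. Capitals mark the bases of a motif found on either strand, and lower case marks all other bases.
Tnfrsf13b promoter: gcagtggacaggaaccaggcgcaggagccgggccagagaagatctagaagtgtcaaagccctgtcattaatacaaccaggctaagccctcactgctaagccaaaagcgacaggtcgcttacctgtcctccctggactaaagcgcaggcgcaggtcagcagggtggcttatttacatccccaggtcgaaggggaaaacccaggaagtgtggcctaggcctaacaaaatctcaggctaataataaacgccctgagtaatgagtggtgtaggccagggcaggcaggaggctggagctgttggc
Tnfrsf13c promoter: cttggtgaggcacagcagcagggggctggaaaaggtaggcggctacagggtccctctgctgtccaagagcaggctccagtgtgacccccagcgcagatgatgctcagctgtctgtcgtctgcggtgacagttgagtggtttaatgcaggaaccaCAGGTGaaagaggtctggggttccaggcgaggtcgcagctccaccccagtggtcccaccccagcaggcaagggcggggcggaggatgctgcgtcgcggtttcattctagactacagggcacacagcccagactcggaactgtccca
Tnfrsf17 promoter: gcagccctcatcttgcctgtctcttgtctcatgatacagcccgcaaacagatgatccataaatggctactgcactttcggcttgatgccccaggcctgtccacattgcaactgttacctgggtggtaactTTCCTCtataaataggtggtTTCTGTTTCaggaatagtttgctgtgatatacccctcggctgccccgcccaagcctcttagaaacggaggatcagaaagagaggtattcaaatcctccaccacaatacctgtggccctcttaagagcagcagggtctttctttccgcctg
The search covered the PU.1-type ETS core GAGGAA, the E-box CAGGTG, the octamer ATGCAAAT, the interferon response type pair GAAANNGAA, the STAT-type site TTCNNNGAA and an NF-kB site. The Tnfrsf13c window held CAGGTG once, at base 155, a motif present in 20.2% of 32851 promoter windows. The Tnfrsf17 window held GAGGAA once, starting at base 131 on the opposite strand (28.3% of windows), and GAAANNGAA once, starting at base 151 on the opposite strand (8.56% of windows). The Tnfrsf13b window held none of these 6 motifs, of which ATGCAAAT, TTCNNNGAA and the NF-kB site were present in 1.74%, 8.30% and 4.51% of windows. A match is a description of letters, not of a bound site. Of the other members, Tnfsf13b and Tnfsf13 also had a window in the table.

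In the GENCODE M21 annotation of GRCm38, the build that the submitters' processing notes name as mm10, Tnfrsf13b (ENSMUSG00000010142) spans chr11:61126755-61149372 with 5 exons. Tnfrsf13c (ENSMUSG00000068105) spans chr15:82221743-82224369 with 3 exons, Tnfrsf17 (ENSMUSG00000022496) chr16:11313812-11320074 with 3 exons and Cd40 (ENSMUSG00000017652) chr2:165055627-165072948 with 9 exons. Of the ligands, Tnfsf13b (ENSMUSG00000031497) spans chr8:10006467-10039072 with 6 exons, Tnfsf13 (ENSMUSG00000089669) chr11:69682846-69685784 with 6 exons and Cd40lg (ENSMUSG00000031132) chrX:57212143-57224042 with 5 exons. The reads of a 3′ assay fall mostly in the last exon and its 3′ UTR. The last exon of Tnfsf13 is overlapped by the antisense gene Tnfsf13os, which has its own row in the matrices, and on the same strand by the read-through gene Tnfsfm13, so counts given for Tnfsf13 can include reads of the read-through transcript.

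**Figure D1:**
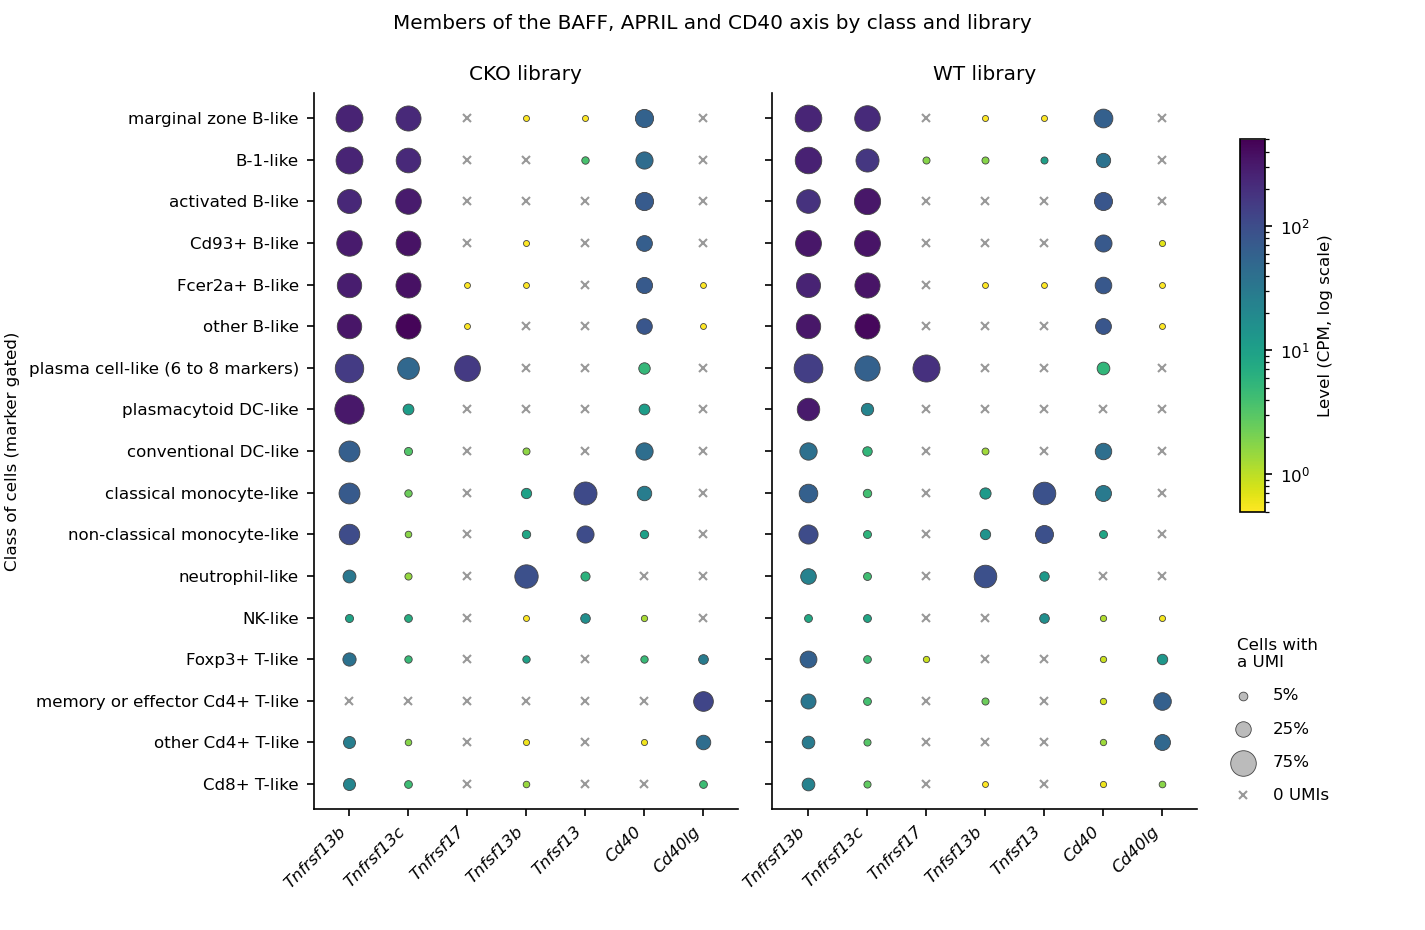
Level and detection of the 7 members in 17 marker-gated classes (rows), with the CKO library in the left panel and the WT library in the right panel. Colour gives the level in CPM on a log scale, the area of a dot the percentage of cells with a UMI, and a cross a class with 0 UMIs; Tnfrsf13c and Cd40 fill the B-like rows, Tnfrsf17 the plasma cell-like row, Tnfsf13b the neutrophil-like row, Tnfsf13 the monocyte-like rows and Cd40lg the Cd4+ rows in both libraries.

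Tnfrsf13c, the BAFF receptor, was largely restricted to B-like cells, and its level there was nearly the same in both libraries. B-like cells held 15227 UMIs of Tnfrsf13c in the CKO library, a level of 352.8 CPM (347.2 to 358.4), and 11291 UMIs in the WT library, a level of 340.0 CPM (333.8 to 346.3). The ratio of CKO over WT was 1.04 (1.01 to 1.06), a difference clear of counting error but small. Among cells of 5000 to 10000 UMIs, a window chosen after seeing the data, the ratio was 0.9814 (0.943 to 1.02), so the direction did not hold at that depth. A UMI of Tnfrsf13c was found in 71.9% of CKO B-like cells (70.9 to 72.8) and in 72.9% of WT B-like cells (71.7 to 74.0). After each cell was thinned to 1000 UMIs, which left out 50 CKO and 86 WT cells that were shallower, the shares were 29.9% in CKO and 28.4% in WT. T-like cells, the comparison class, had a UMI in 1.40% of CKO cells and 2.26% of WT cells. Their median depths were 6018.5 UMIs in CKO and 6751 UMIs in WT. B-like cells held 90.2% of all Tnfrsf13c UMIs in the retained CKO cells and 89.1% in the retained WT cells.

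Within the B lineage, Tnfrsf13c was lower in marginal zone B-like cells, the innate-like B cells at the border of the white pulp, than in cells with a UMI of Fcer2a, the CD23 gene of follicular B cells. The marginal zone B-like gate asked for at least 3 of its markers and for no UMI of Fcer2a. In the CKO library its level was 228.4 CPM in 682 marginal zone B-like cells and 362.0 CPM in 5172 Fcer2a+ cells, a ratio of 0.631 (0.595 to 0.668). In the WT library it was 222.1 CPM in 477 marginal zone B-like cells and 346.4 CPM in 4150 Fcer2a+ cells, a ratio of 0.641 (0.598 to 0.687). The same difference was thus present in both libraries. Among cells of 5000 to 10000 UMIs the ratio was 0.638 (0.587 to 0.693) in CKO and 0.701 (0.637 to 0.769) in WT. Marginal zone B-like cells were deeper, with medians of 7824 UMIs in CKO and 7941 UMIs in WT against 4179.5 and 4459 UMIs in Fcer2a+ cells, and per cell they held more Tnfrsf13c UMIs, by a ratio of 1.12 in CKO and 1.11 in WT. Over all cells of each class the lower level is therefore a lower share of transcripts without a lower number of UMIs per cell. That number moves with depth, and among cells of 5000 to 10000 UMIs the share stayed lower, as given above.

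B-1-like cells, innate-like B cells that renew themselves, had 227 CPM of Tnfrsf13c in the CKO library (79 cells, 182 UMIs) and 167 CPM in the WT library (53 cells, 96 UMIs). The CKO over WT ratio in these few cells was 1.36 (1.06 to 1.76). Against Fcer2a+ cells, the ratio of B-1-like cells was 0.627 (0.539 to 0.726) in CKO and 0.482 (0.390 to 0.589) in WT. B-1-like cells were also deep, with medians of 8898 UMIs in CKO and 9430 UMIs in WT. Per cell they did not hold fewer Tnfrsf13c UMIs than Fcer2a+ cells, which held 9045 in 5172 CKO cells and 7170 in 4150 WT cells. Cd93+ cells, which include the newly arrived transitional B cells, had 360 CPM in CKO and 349 CPM in WT and did not differ from Fcer2a+ cells beyond counting error in either library. Activated B-like cells had 301 CPM in CKO and 331 CPM in WT. The remaining B-like cells had 460 CPM in CKO and 433 CPM in WT, the highest level of any class in both libraries. They were also the shallowest B-like subset, with medians of 3733 UMIs in CKO and 4032 UMIs in WT, and among cells of 5000 to 10000 UMIs their ratio to Fcer2a+ cells was 1.09 (0.9896 to 1.19) in CKO and 1.05 (0.951 to 1.16) in WT, not clear of counting error. Plasma cell-like cells with 6 to 8 markers, the antibody secreting cells, were the lowest of the B lineage as a share of transcripts. They had 49.6 CPM (20 UMIs in 17 cells) in CKO and 60.3 CPM (45 UMIs in 26 cells) in WT. Their median depths were 21446 UMIs in CKO and 27716 UMIs in WT.

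Tnfrsf13b, the TACI receptor, was present across the B lineage and was the one BAFF-binding receptor whose transcripts were also counted well above background outside it. B-like cells held 12428 UMIs and 287.9 CPM (282.9 to 293.1) in the CKO library, and 8906 UMIs and 268.2 CPM (262.6 to 273.8) in the WT library. The ratio was 1.07 (1.04 to 1.103), again a small difference clear of counting error. A UMI was found in 69.9% of CKO B-like cells (68.9 to 70.9) and 68.1% of WT B-like cells (66.9 to 69.2), and after thinning in 25.2% of CKO and 23.6% of WT cells. The number of UMIs averaged 1.48 per CKO cell and 1.42 per WT cell, with a highest count of 14 and 12 in a single cell.

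The 2 libraries also gave much the same values subset by subset. Marginal zone B-like cells, which are known for high TACI on their surface, had 256 CPM of Tnfrsf13b in CKO and 244 CPM in WT, and Fcer2a+ cells had 286.9 CPM in CKO and 260.8 CPM in WT. As a share of transcripts the marginal zone B-like cells were therefore not the higher ones, at ratios to Fcer2a+ cells of 0.892 (0.843 to 0.944) in CKO and 0.937 (0.875 to 1.002) in WT. Per cell they held more, by a ratio of 1.58 in CKO and 1.62 in WT. Among cells of 5000 to 10000 UMIs the level of marginal zone B-like cells stayed below that of Fcer2a+ cells, with ratios of 0.914 (0.843 to 0.991) in CKO and 0.876 (0.793 to 0.966) in WT. Activated B-like cells had the lowest level of the B-like subsets, 229 CPM in CKO and 189 CPM in WT, a CKO over WT ratio of 1.21 (1.04 to 1.40). In CKO the next class, B-1-like cells, was above them by a ratio of 1.11 (0.935 to 1.31), not clear of counting error. Activated B-like cells were deeper than Fcer2a+ cells, with medians of 6428 UMIs in CKO and 6129.5 in WT against 4179.5 and 4459. Per cell they did not hold fewer Tnfrsf13b UMIs, with 498 in 294 CKO and 286 in 212 WT cells. Fcer2a+ cells held 7168 in 5172 and 5398 in 4150.

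In plasma cell-like cells with 6 to 8 markers, Tnfrsf13b stood at 149 CPM (60 UMIs in 17 cells) in CKO and 143 CPM (107 UMIs in 26 cells) in WT. These cells were deep, with medians of 21446 UMIs in CKO and 27716 in WT. The lower share of transcripts came with more Tnfrsf13b UMIs per cell than in Fcer2a+ cells, which held 7168 in 5172 CKO cells and 5398 in 4150 WT cells. Plasmacytoid dendritic cell-like cells, the interferon producers, had 319 CPM (29 UMIs in 10 cells) in CKO and 310 CPM (14 UMIs in 7 cells) in WT, within the range of the B-like subsets. With cells of several lineages placed where most of their markers lay, an alternative chosen after seeing the data, 30 CKO and 42 WT cells of this class had 298 CPM (80 UMIs) and 307 CPM (124 UMIs). The level of Tnfrsf13b was thus similar in a larger number of cells, but many candidates for this placing also held at least 3 B-like markers. Cells with B-like and plasmacytoid dendritic cell-like markers numbered 13 in CKO and 10 in WT, and with conventional dendritic cell-like markers as well 11 and 13. Those with the markers of both dendritic types but without the B-like ones numbered 8 and 20. The part of B cell RNA in the added cells was not tested. Tnfrsf13c did not share the high level, with 1 UMI in the 10 CKO cells and 1 UMI in the 7 WT cells of the main gate.

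Monocyte or macrophage-like cells had 82.2 CPM of Tnfrsf13b in CKO (133 UMIs, 46.2% of 197 cells, 39.1 to 53.4) and 73.8 CPM in WT (74 UMIs, 36.5% of 126 cells, 28.1 to 45.6). The thinned shares were 8.25% in CKO and 7.50% in WT, and the CKO over WT ratio of the level was 1.11 (0.831 to 1.499). Non-classical monocyte-like cells, the patrolling type, had 103 CPM in CKO and 104 CPM in WT, and classical monocyte-like cells had 73.4 CPM in CKO and 62.0 CPM in WT. The order was the same in both libraries, but the neighbours were clear of each other's counting error in WT alone. NK-like cells were low, with 9.14 CPM in CKO (3.68% of cells) and 7.97 CPM in WT (3.28% of cells).

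T-like cells gave a low level of Tnfrsf13b of 25.1 CPM in CKO (111 UMIs, 13.3% of cells, 10.9 to 16.0) and 29.0 CPM in WT (729 UMIs, 16.5% of cells, 15.3 to 17.8). After thinning the shares were 3.37% in CKO and 2.72% in WT, in the other order, and the ratio of the level was 0.866 (0.703 to 1.06) at full depth and 1.164 (0.713 to 1.83) after thinning, so no direction between the libraries can be read. Other genes high in B-like cells were measured beside it, as a gauge of free RNA from B cells. The level in T-like cells was 8.73% of that in B-like cells in CKO and 10.8% in WT, whereas the B cell gene Cd79a reached 0.557% in CKO and 0.393% in WT, and Tnfrsf13c reached 0.642% in CKO and 0.971% in WT. Per 100 UMIs of Tnfrsf13c, B-like cells held 81.6 UMIs of Tnfrsf13b in CKO and 78.9 in WT, while T-like cells held 1110 (581 to 2379) in CKO and 878 (699 to 1116) in WT. In T-like cells with no UMI of any B-like marker, a subset chosen after seeing the data, Tnfrsf13b stood at 22.7 CPM in 426 CKO cells and 29.2 CPM in 2076 WT cells. In NK-like cells the figures were 137 (81.2 to 234) per 100 in CKO and 93.3 (41.7 to 207) in WT. The level of Tnfrsf13b in NK-like cells was 3.17% of that in B-like cells in CKO and 2.97% in WT, that of Tnfrsf13c 1.89% in CKO and 2.51% in WT, and that of Cd79a 0.576% in CKO and 0.685% in WT. The part of free RNA in these low levels was not tested.

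Among T-like cells the highest level of Tnfrsf13b was in Foxp3+ cells, the regulatory type, with 38.4 CPM (8 UMIs) in CKO and 61.6 CPM (71 UMIs) in WT. The WT level was 2.08 times (1.57 to 2.71) that of Cd4+ T-like cells. In CKO the same ratio was 1.46 (0.596 to 3.13), with too few UMIs in 41 cells to place it above or below 1. The CKO over WT ratio in Foxp3+ cells, 0.624 (0.259 to 1.30), spanned 1 as well.

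Cd40 was shared by B-like cells and antigen-presenting classes and was near 0 in lymphocytes that give help. B-like cells held 3047 UMIs and 70.6 CPM (68.1 to 73.2) in CKO, and 2470 UMIs and 74.4 CPM (71.5 to 77.4) in WT, a ratio of 0.949 (0.8998 to 1.001). A UMI was found in 28.0% of CKO B-like cells (27.0 to 29.0) and in 29.7% of WT B-like cells (28.5 to 30.8), and after thinning in 7.02% of CKO and 7.62% of WT cells. The interval just reached 1. It lay below 1 under 5 of the 10 alternatives, of which the equal weighting of cells gave no interval. A gate of 2 markers gave 0.9107 (0.851 to 0.975), while among cells of 5000 to 10000 UMIs the ratio was 1.007 (0.921 to 1.103). T-like cells, the comparison class, had a UMI in 0.420% of CKO and 0.543% of WT cells.

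Most subsets of B-like cells had similar levels of Cd40, with B-1-like cells lower as a share of transcripts. Fcer2a+ cells had 72.5 CPM in CKO and 76.7 CPM in WT, and activated B-like cells had 70.3 CPM in CKO and 78.0 CPM in WT. Marginal zone B-like cells had 58.8 CPM in CKO and 61.4 CPM in WT, and among cells of 5000 to 10000 UMIs their ratio to Fcer2a+ cells was 1.02 (0.873 to 1.19) in CKO and 1.03 (0.857 to 1.23) in WT. B-1-like cells were the lowest of the B-like subsets, with 44.9 CPM in CKO and 36.5 CPM in WT. Their ratio to Fcer2a+ cells was 0.620 (0.433 to 0.861) in CKO and 0.476 (0.294 to 0.730) in WT. They were deeper, with medians of 8898 UMIs in CKO and 9430 in WT against 4179.5 and 4459 in Fcer2a+ cells. Per cell they did not hold fewer Cd40 UMIs, with 36 in 79 CKO cells and 21 in 53 WT cells. Fcer2a+ cells held 1811 in 5172 CKO cells and 1587 in 4150 WT cells. No ratio at matched depth is given for B-1-like cells. Conventional dendritic cell-like cells, the main stimulators of naive T cells, had 42.3 CPM (26 UMIs) in CKO and 41.5 CPM (31 UMIs) in WT. That was above monocyte or macrophage-like cells by a ratio of 1.85 (1.08 to 3.14) in CKO and 1.89 (1.06 to 3.43) in WT. Plasma cell-like cells had 2 UMIs of Cd40 in CKO and 4 UMIs in WT, and neutrophil-like cells had 0 UMIs in both.

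**Figure D2:**
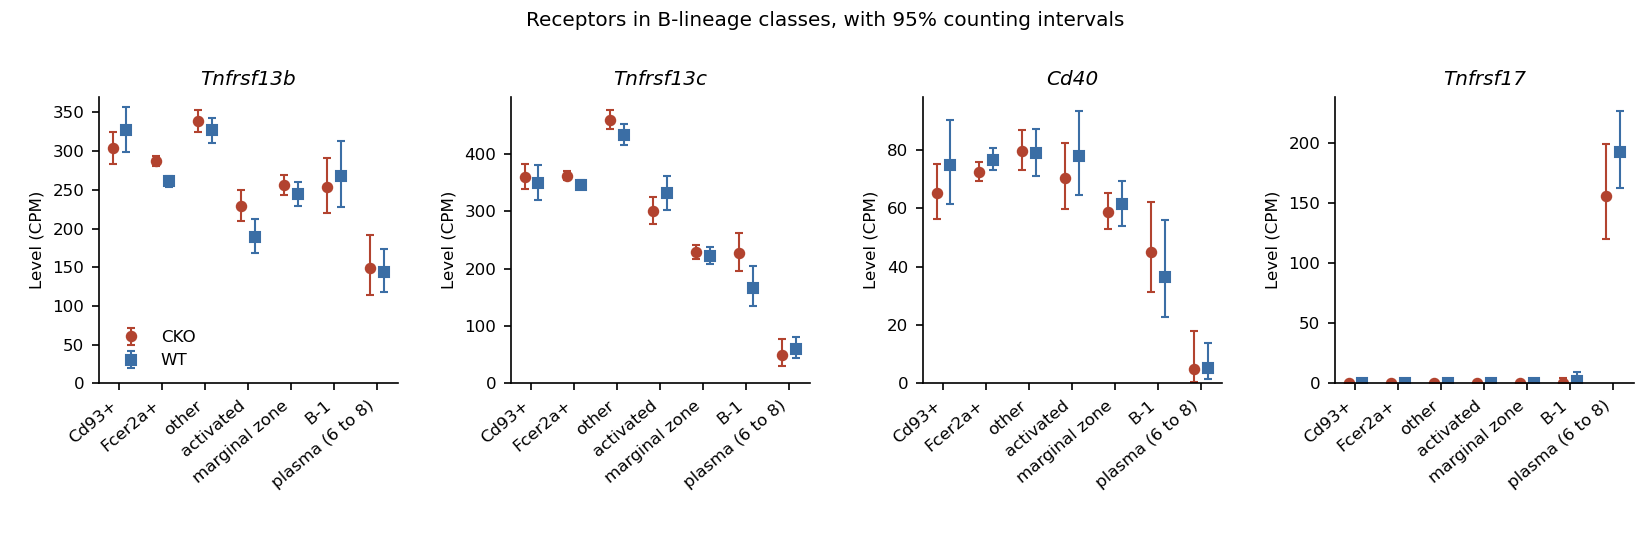
Level in CPM (linear axes from 0) of the 4 receptors in 7 classes of the B lineage, with CKO as circles, WT as squares and bars as exact Poisson 95% intervals. As a share of transcripts, Tnfrsf13c, Cd40 and Tnfrsf13b are lowest in plasma cell-like cells with 6 to 8 markers, at 49.6, 4.96 and 149 CPM in CKO. These cells are deep, with medians of 21446 UMIs in CKO and 27716 in WT. Tnfrsf17 is near 0 in all classes but these.

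Tnfrsf17, the BCMA receptor, was found almost wholly in cells with many plasma cell markers. The gate of at least 3 of 8 plasma cell markers took in 596 CKO and 478 WT cells, but 519 of the CKO and 410 of the WT cells had exactly 3, and the median cell carried 9 B-like markers in both libraries. The 579 CKO and 452 WT cells with 3 to 5 markers had 0 UMIs of Tnfrsf17 in both libraries, which allows a share of cells with a UMI of up to 0.518% in CKO and 0.664% in WT. This does not limit the share of cells that express the gene, since the median depth was 5878 UMIs in CKO and 5506.5 UMIs in WT. These cells are called B-like with 3 to 5 plasma cell markers here, and plasma cell-like is kept for cells with 6 to 8 markers, a division made after seeing the data.

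The 17 CKO plasma cell-like cells held 63 UMIs of Tnfrsf17, a level of 156 CPM (120 to 200), and the 26 WT cells held 144 UMIs, a level of 193 CPM (163 to 227). The ratio was 0.809 (0.592 to 1.096) and spanned 1, and after thinning, with few UMIs left, it was 0.3824 (0.00776 to 3.86). A UMI was found in 13 of the 17 CKO cells and 22 of the 26 WT cells, with a highest count of 18 in a single cell of each library. Median depths were 21446 UMIs per cell in CKO and 27716 in WT. Sdc1, the syndecan of plasma cells, was detected in 16 CKO and 23 WT cells. Prdm1, the Blimp-1 gene of their differentiation, was detected in 13 CKO and 19 WT cells. Both genes are among the 8 markers of the gate, so their detection is in part set by it and is not separate evidence. B-like cells gave 2 UMIs of Tnfrsf17 in 8370 CKO cells and 1 UMI in 6292 WT cells. With the whole gate of at least 3 markers the level was 12.9 CPM in CKO and 34.1 CPM in WT, a ratio of 0.377 (0.276 to 0.511), in which the share of cells with 6 to 8 markers moved with the genotype label (17 of 596 in CKO and 26 of 478 in WT).

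Most B-like cells carried a transcript of a BAFF-binding receptor. A UMI of Tnfrsf13b or Tnfrsf13c was counted in 89.7% of B-like cells in the CKO library and 89.7% in the WT library, and after thinning in 47.0% of CKO and 44.9% of WT cells. Both transcripts were counted in 52.0% of CKO and 51.2% of WT B-like cells, and these 2 and Cd40 together in 15.8% of CKO and 15.8% of WT cells. The shares were lower after thinning, so they depend on the depth of a cell as well as on its expression.

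Of the ligands, Tnfsf13b, which encodes BAFF, was highest in neutrophil-like cells. The 50 CKO cells held 62 UMIs, a level of 91.5 CPM (70.1 to 117), and the 59 WT cells held 67 UMIs, a level of 92.0 CPM (71.3 to 117). The levels were close, with a ratio of 0.994, although its interval ran from 0.692 to 1.43. The ratio moved between 0.6315 with a gate of 2 markers and 2.049 after thinning. A UMI was found in 62.0% of CKO cells (47.2 to 75.3) and 57.6% of WT cells (44.1 to 70.4), with a highest count of 7 and 6 in a single cell, and after thinning in 10.4% of CKO and 5.08% of WT cells. Median depths of neutrophil-like cells were 12668.5 UMIs in CKO and 11943 UMIs in WT.

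Monocyte or macrophage-like cells, which are known producers of BAFF, had 10.5 CPM of Tnfsf13b (17 UMIs) in CKO and 10.98 CPM (11 UMIs) in WT. Neutrophil-like cells were above them by a ratio of 8.71 (5.03 to 15.9) in CKO and 8.39 (4.40 to 17.6) in WT. B-like cells, which should contribute little, had 4 UMIs in 8370 CKO cells and 5 UMIs in 6292 WT cells, so the neutrophil-like signal was not a level shared by all classes. Radioresistant stromal cells, a main source of BAFF in lymphoid tissue, are not among the immune cells profiled.

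Tnfsf13, which encodes APRIL, followed the monocyte lineage. Monocyte or macrophage-like cells had 178 UMIs and 110 CPM (94.4 to 127) in CKO, and 100 UMIs and 99.8 CPM (81.2 to 121) in WT, a ratio of 1.102 (0.858 to 1.42). A UMI was found in 44.2% of CKO cells (37.1 to 51.4) and 43.7% of WT cells (34.8 to 52.8), and after thinning in 7.22% of CKO and 7.50% of WT cells. Classical monocyte-like cells had 107 CPM in CKO and 90.0 CPM in WT, and non-classical monocyte-like cells had 103 CPM in CKO and 92.5 CPM in WT. The classical and non-classical types did not differ beyond counting error in either library.

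NK-like cells formed a second source of Tnfsf13 at a lower level, 16.3 CPM (66 UMIs) in CKO and 16.5 CPM (29 UMIs) in WT, with a CKO over WT ratio of 0.988 (0.629 to 1.59). The NK-like level was 0.148 of the monocyte or macrophage-like one in CKO and 0.165 in WT. It was carried by 7.01% of 870 CKO cells (5.41 to 8.92) and 7.10% of 366 WT cells (4.69 to 10.2), at medians of 4108.5 and 4546 UMIs, and after thinning by 2.65% of CKO and 1.66% of WT cells. T-like cells, the comparison class, had 1 UMI in 714 CKO cells and 1 UMI in 3499 WT cells, so the NK-like share was above the background. B-1-like cells had 3 UMIs of Tnfsf13 in CKO and 6 UMIs in WT, and the 6 UMIs lay in 1 cell.

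Cd40lg was nearly restricted to T-like cells and was low in those with a UMI of Cd8a or Cd8b1. Cd4+ T-like cells had 80 UMIs and 45.7 CPM (36.2 to 56.9) in CKO, and 447 UMIs and 51.9 CPM (47.2 to 57.0) in WT, a ratio of 0.880 (0.685 to 1.12). A UMI was found in 21.99% of 291 CKO cells (17.4 to 27.2) and 27.5% of 1262 WT cells (25.05 to 30.05), at medians of 5849 and 6490.5 UMIs, and after thinning in 3.44% of CKO and 6.50% of WT cells. The level was thus lower in CKO by an amount within the counting error, with a ratio of 0.5675 (0.273 to 1.07) after thinning, while Cd4+ T-like cells themselves were 2.57% of retained CKO cells and 11.2% of retained WT cells. B-like cells, the comparison class, had 2 UMIs in CKO and 6 UMIs in WT.

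Memory or effector Cd4+ T-like cells, with at least 3 markers such as Cxcr3, Icos and S100a4, had the highest level of Cd40lg in both libraries, though not clear of the next class beyond counting error in either. It was 121 CPM in CKO, from 6 UMIs in 7 cells (44.3 to 263), and 62.6 CPM in WT, from 79 UMIs in 155 cells (49.5 to 78.0). The remaining Cd4+ cells had 43.5 CPM in CKO (284 cells) and 50.1 CPM in WT (1107 cells). The ratio in these cells, 0.868 (0.667 to 1.12), was close to that over all Cd4+ T-like cells, although memory or effector cells were 7 of 291 Cd4+ cells in CKO and 155 of 1262 in WT. Foxp3+ cells had 28.8 CPM (6 UMIs) in CKO and 13.004 CPM (15 UMIs) in WT. In WT this was 0.250 (0.139 to 0.418) of the Cd4+ level, and in CKO 0.630 (0.225 to 1.43), with an interval that spans 1. T-like cells that fell in none of the named T-like subsets had 38.7 CPM in CKO and 51.1 CPM in WT, close to the Cd4+ level. Cd8+ T-like cells, the cytotoxic type, were lower still, with 4.36 CPM (3 UMIs) in CKO and 1.70 CPM (17 UMIs) in WT.

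**Figure D3:**
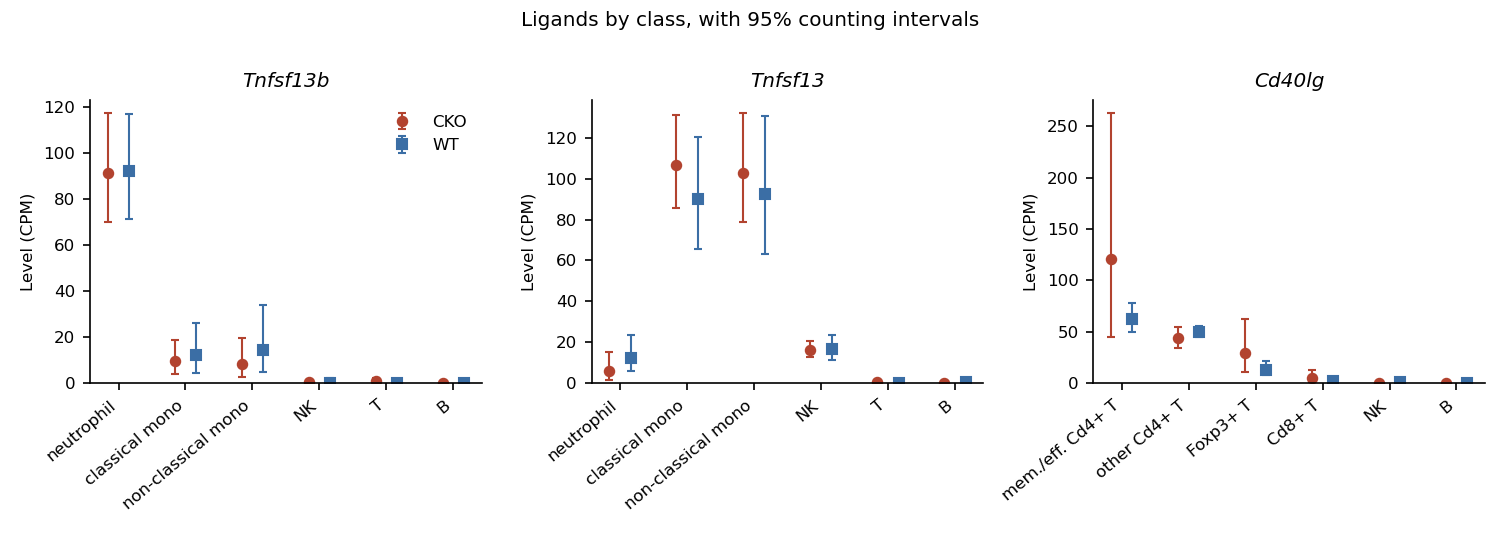
Level in CPM (linear axes from 0) of the 3 ligands by class, with CKO as circles, WT as squares and bars as exact Poisson 95% intervals. Tnfsf13b stands at 91.5 CPM in CKO and 92.0 CPM in WT neutrophil-like cells, Tnfsf13 is high in both types of monocyte-like cells and low in NK-like cells, and the widest interval, of Cd40lg in CKO memory or effector cells, rests on 6 UMIs.

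Within classes, the members were seldom past 1.5-fold between the libraries. In B-like cells 0 of the 3 members with at least 20 summed UMIs were past it, where 4.33% of 12934 genes were higher and 3.25% lower in CKO by this measure. In marginal zone B-like cells 0 of 3 members were past it, beside 7.43% of genes higher and 3.2% lower. In NK-like cells it was 0 of 3, beside 6.57% higher and 4.73% lower. In monocyte or macrophage-like cells it was 0 of 4, beside 6.79% higher and 6.54% lower, and in neutrophil-like cells 0 of 2, beside 11.9% higher and 11.7% lower. In Cd4+ T-like cells 1 of 3 members was lower and 0 were higher, beside 9.69% of genes lower and 6.11% higher. That member was Tnfrsf13c, with 1.71 CPM (3 UMIs) in CKO and 3.25 CPM (28 UMIs) in WT. Its ratio of 0.527 (0.102 to 1.71) spanned 1, and the part of free RNA in it was not tested. With so few members in each class, shares of this size in the background leave nothing to read from the counts.

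Over all retained cells the members moved much further, and the class make-up moved with them. In the whole of the retained cells 1 of 7 members was higher, beside 9.78% of 14899 genes, and 2 of 7 were lower, beside 7.52%. Cd40lg stood at 2.504 CPM (161 UMIs) in CKO and 11.01 CPM (775 UMIs) in WT, a ratio of 0.227 (0.191 to 0.270). Tnfrsf17 stood at 1.09 CPM (70 UMIs) in CKO and 2.23 CPM (157 UMIs) in WT, a ratio of 0.488 (0.363 to 0.651). Tnfsf13 stood at 4.96 CPM (319 UMIs) in CKO and 2.33 CPM (164 UMIs) in WT, a ratio of 2.13 (1.76 to 2.59). For Cd40lg and Tnfsf13 the interval of the ratio within the main source class spanned 1, as given above, while the shares of T-like, monocyte or macrophage-like and NK-like cells differed between the libraries.

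The other members were higher in CKO over all retained cells by less than 1.5-fold. The ratio was 1.45 (1.41 to 1.48) for Tnfrsf13b, 1.46 (1.43 to 1.49) for Tnfrsf13c, 1.35 (1.28 to 1.42) for Cd40 and 1.38 (1.07 to 1.78) for Tnfsf13b. For the 3 receptors B-like cells were the main source, holding 84.6% of the Tnfrsf13b UMIs in CKO and 80.2% in WT, and 88.0% of the Cd40 UMIs in CKO and 87.8% in WT. B-like cells were also the larger share of the CKO library, 74.0% in CKO and 55.8% in WT. T-like cells held 85.7% of the Cd40lg UMIs in CKO and 96.4% in WT, and neutrophil-like cells held 44.0% of the Tnfsf13b UMIs in CKO and 59.8% in WT.

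**Figure D4:**
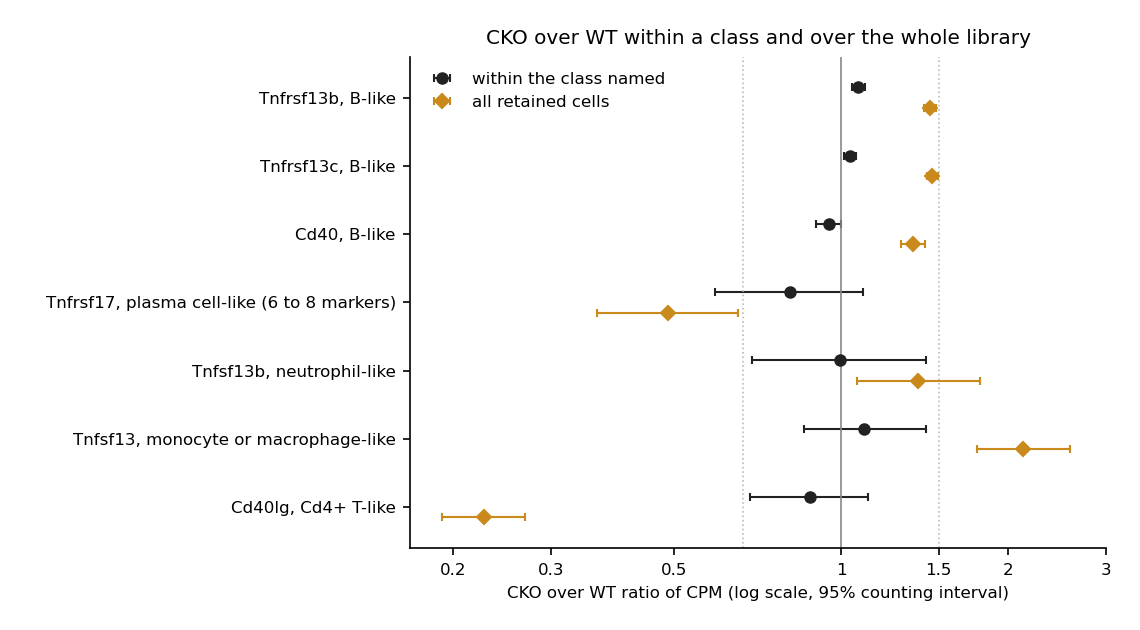
CKO over WT ratio of CPM (log axis) of each member within its main class (black circles) and over all retained cells (ochre diamonds), with exact conditional binomial 95% intervals; the solid line marks 1 and the dotted lines 1.5-fold. The ratios within a class lie between 0.809 and 1.102, while Cd40lg over all retained cells lies at 0.227 and Tnfsf13 at 2.13.

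Set side by side, the ligand of help, counted in T-like cells, was scarcer beside its receptor-bearing cells in the CKO library. For the soluble ligands the reading depended on the cells counted. T-like cells held 1.65 UMIs of Cd40lg per 100 B-like cells in CKO and 11.9 in WT. There were 72.8 B-like cells for each T-like cell with a Cd40lg UMI in CKO (115 such cells) and 10.7 in WT (588 such cells). For Tnfsf13b all retained cells held 1.68 UMIs per 100 B-like cells in CKO and 1.78 in WT, and for Tnfsf13 3.81 in CKO and 2.61 in WT. Of these Tnfsf13b UMIs, cells of several lineages held 52 in CKO and 23 in WT. Neutrophil-like cells alone held 62 Tnfsf13b UMIs in CKO and 67 in WT, fewer per B-like cell in CKO. Monocyte or macrophage-like cells alone held 178 Tnfsf13 UMIs in CKO and 100 in WT, more per B-like cell in CKO. The numbers of cells moved with these figures, 714 T-like and 8370 B-like cells in CKO against 3499 and 6292 in WT, and the part of cell isolation in those numbers was not tested.

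The other genes of the pathway were counted from 4 lists of 56 genes in all: adapters and kinases of the receptors, NF-kB subunits and inhibitors, survival and B cell response genes, and ligand processing and helper T cell partners. In B-like cells 52 were measured, with 0 higher and 2 lower by 1.5-fold (3.85%), where 4.33% of all genes tested were higher and 3.25% lower. Their median log2 ratio was 0.02, and that of all genes tested was 0.04. The share of list genes that were lower was thus near the background. Both genes past 1.5-fold were near the limit of detection. Cd28, the costimulatory receptor of T cells, had 16 UMIs in CKO and 31 UMIs in WT (ratio 0.397, 0.203 to 0.749), and beside it the T cell genes Cd3d and Trac in B-like cells stood at 1.78 and 1.04 CPM in CKO and at 7.20 and 4.49 CPM in WT. Bcl2a1a, a survival gene with near-identical copies among which reads can be split, had 31 UMIs in CKO and 39 UMIs in WT, with an interval that spans 1.

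Other pathway genes of B-like cells, named here after their values were seen, differed by less than 1.5-fold. Cd83, a surface protein that is induced on activated B cells, stood at 91.8 CPM in CKO and 125 CPM in WT, a ratio of 0.737 (0.705 to 0.770). Mcl1, a survival factor of the Bcl2 family, stood at 751 CPM in CKO and 662 CPM in WT (ratio 1.13, 1.11 to 1.15). Nfkb2, the subunit that is processed after BAFF receptor signalling, stood at 88.2 CPM in CKO and 77.6 CPM in WT (ratio 1.14, 1.08 to 1.196). The adapters and kinases were on both sides of 1. Traf1, an adapter of the CD40 pathway, stood at 14.9 CPM in CKO and 18.5 CPM in WT (ratio 0.807, 0.721 to 0.903). Traf2, an adapter that recruits the inhibitor of apoptosis ligases, stood at 25.7 CPM in CKO and 22.5 CPM in WT (ratio 1.14, 1.04 to 1.26). Map3k14, the kinase of the alternative NF-kB pathway, stood at 24.5 CPM in CKO and 24.6 CPM in WT (ratio 0.995, 0.908 to 1.09).

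In Cd4+ T-like cells 51 genes of the lists were measured, with 1 higher (1.96%) and 11 lower (21.6%), where 6.11% of all genes tested were higher and 9.69% lower. Their median log2 ratio was -0.05, and that of all genes tested was 0.01. The gene that was higher was Bcl2, which protects cells from apoptosis, with 381 CPM in CKO and 234 CPM in WT (ratio 1.63, 1.49 to 1.78). Of the helper T cell partners, 5 of the 10 measured were lower, with a median log2 ratio of -0.54. Among them were Pdcd1, the PD-1 receptor, with 3 UMIs in CKO and 81 UMIs in WT (ratio 0.182, 0.0368 to 0.551), Icos, a costimulator of follicular helper cells, with 25.1 CPM in CKO and 43.4 CPM in WT (ratio 0.578, 0.413 to 0.792), and Nfatc1, a transcription factor of T cell receptor signalling, with 39.98 CPM in CKO and 62.5 CPM in WT (ratio 0.640, 0.491 to 0.822). Of the survival genes, Bcl2a1b stood at 19.99 CPM in CKO and 49.3 CPM in WT (ratio 0.406, 0.279 to 0.573) and Bcl2a1d at 5.71 CPM in CKO and 18.1 CPM in WT (ratio 0.315, 0.148 to 0.595), both with near-identical copies. Ikbkg, the regulatory subunit of the kinase that releases NF-kB, had 13 UMIs in CKO and 121 UMIs in WT (ratio 0.528, 0.273 to 0.938). The remaining lower genes of the survival and B cell response list, named after their values were seen, were Fcer2a, Cd86 and Cd83. They had 3, 4 and 4 UMIs in CKO and 48, 56 and 35 UMIs in WT, and the interval of Cd83 spanned 1. The part of free RNA in these low counts was not tested.

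The share of memory or effector cells moved with these differences. Without those cells, a choice made after seeing the data, 47 genes were measured in the other Cd4+ cells, with 2 higher (4.26%) and 3 lower (6.38%), where 7.29% of all genes tested were higher and 7.24% lower. None of the 7 measured helper T cell partners was past 1.5-fold there, and their median log2 ratio was 0.02. Il4, Cxcr5 and Pdcd1, lower over all Cd4+ T-like cells, had fewer than 20 summed UMIs there and left the count. The shift of these genes could thus not be judged in the other Cd4+ cells. Icos, Cxcr5 and Pdcd1 are themselves among the markers that define the memory or effector cells, so their removal lowers these genes in both libraries. Bcl2 stood at 386 CPM in CKO and 257 CPM in WT in the other Cd4+ cells (ratio 1.501, 1.37 to 1.64), and Ikbkg kept a ratio of 0.534 (0.267 to 0.976).

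**Figure D5:**
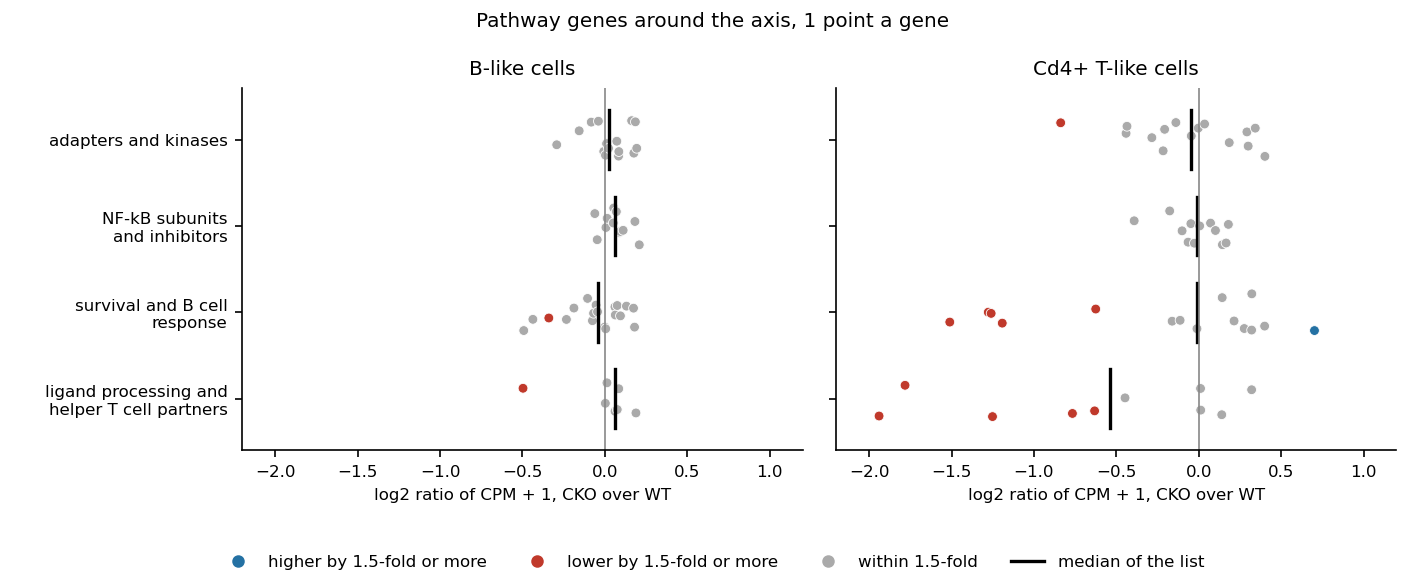
Log2 ratio of CPM plus 1, CKO over WT, of each measured pathway gene (points) by list (rows), in B-like cells (left) and Cd4+ T-like cells (right), with the median of a list as a black bar. Points lie near 0 in B-like cells, where 2 are lower by 1.5-fold, while in Cd4+ T-like cells the helper T cell partners have a median of -0.54.

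The genes whose levels followed each member most closely over 34 points (17 mutually exclusive classes in each library) were taken from 8059 genes by Pearson's r of log2(CPM + 1). The r values describe classes that share a library and its depth, and they have no p-value. For Tnfrsf13c they were Olfr164 (0.987), Gm30211 (0.987) and Klhl14 (0.984), and for Cd40 they were Pkib (0.979), Cd74 (0.962) and Bcl11a (0.961). For Tnfrsf13b they were Siglecg (0.917), an inhibitory lectin of B cells, Pold4 (0.916) and Rapgef5 (0.914). For the ligands they were Dgat2 (0.927), Peli2 (0.924) and Fpr2 (0.923) with Tnfsf13b, Fcgr3 (0.946), Cebpb (0.904) and F10 (0.903) with Tnfsf13, and Ly6c1 (0.941), Lrig1 (0.937) and Iigp1 (0.936) with Cd40lg. For Tnfrsf17 no gene came near, with Gipc1 (0.476) first, then Rfesd (0.455) and Eif2b4 (0.438), since the plasma cell-like cells with 6 to 8 markers were fewer than the 30 cells needed for a point.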

How the data were processed

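The authors deposited unnormalized UMI counts for every gene in every called cell, which the matrix headers credit to Cell Ranger 6.0.2. Per the submitters' processing notes, Seurat 4.0.3, Cell Ranger 5.0.0 and the mm10 genome were used. Cells with 200 to 6000 genes and under 10% mitochondrial UMIs were retained. Likely doublets were removed by Scrublet scores (scanpy 1.11.5) at or above the quantile set by 0.8% per 1000 cells. UMIs were summed per marker-gated class and library. Genes entered a comparison with at least 20 summed UMIs, size was judged at 1.5-fold, and log2 ratios used a pseudocount of 1 CPM. For shares, each cell was thinned to 1000 UMIs (seed 0). With 1 library per genotype there was no test. Depth was 76910129 UMIs in the CKO library and 84240951 in the WT library, over all barcodes.

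All 7 members were named, with the 3 most alike genes of each (classes of at least 30 cells, at least 20 CPM in 1 class of each library). Of the pathway lists, genes past 1.5-fold with an interval clear of 1 were named, up to 6 per class and direction by the bound nearest 1, and any others are said to have been picked after their values were seen. The members and lists were chosen with earlier results of these data known. Alternatives changed the marker number, doublet rule, cell filter, CPM denominator, weighting of cells, depth, pseudocount, count minimum and fold. The placing of cells of several lineages, the window of 5000 to 10000 UMIs, the division of the plasma cell gate, the cells without B-like markers and the Cd4+ cells without memory or effector cells were added after seeing the data. Promoters came from RefSeq (GRCm38.p6). The scripts were tested on simulated data. The software was pandas 2.3.3, scipy 1.17.1, numpy 2.4.6 and matplotlib 3.10.9 under Python 3.11.15.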

Additional observations from a re-analysis of the deposited data

Results flagged for a closer look

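Cells that held at least 3 markers of each of several lineages, 354 in the CKO library and 298 in the WT library, were in no class, yet every member had more than the floor of 3 UMIs in them. Their median depth was 9688.5 UMIs in CKO and 8882.5 UMIs in WT. They are flagged because they carry signal that the comparisons by class did not use.

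Of the receptors, Tnfrsf13b had 424 UMIs in these cells in CKO and 278 in WT, Tnfrsf13c 297 in CKO and 108 in WT, Cd40 84 in CKO and 52 in WT, and Tnfrsf17 5 in CKO and 9 in WT. Of the ligands, Tnfsf13b had 52 UMIs in CKO and 23 in WT, Tnfsf13 58 in CKO and 14 in WT, and Cd40lg 21 in CKO and 19 in WT. For Tnfsf13b this was 36.9% of its UMIs in the retained CKO cells and 20.5% in the retained WT cells, a larger share than for the other members. Cells with both monocyte or macrophage and neutrophil markers, 33 in CKO and 13 in WT, held 29 and 10 of the Tnfsf13b UMIs. Cells with both B-like and neutrophil markers, 13 in CKO and 10 in WT, held 9 and 12 of them. Cells with B-like and T-like markers, 92 in CKO and 98 in WT, held 16 and 12 of the Cd40lg UMIs. Whether these cells are doublets that the Scrublet rule missed was not tested.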

How the results depend on the processing

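No paired analysis was possible because there was 1 library per genotype. Of 108 alternative CKO over WT ratios for 11 member and class pairs under up to 10 alternatives, 96 stayed within the counting interval of the reported ratio and 12 did not. Thinning to 1000 UMIs gave 2.049 for Tnfsf13b in neutrophil-like cells, 0.5675 for Cd40lg in Cd4+ T-like cells, 1.164 for Tnfrsf13b in T-like cells, and for Tnfrsf17 0.2001 in the whole plasma cell gate and 0.3824 in cells with 6 to 8 markers, all from few UMIs. For Tnfsf13b in neutrophil-like cells the ratio was 0.6315 with 2 markers and 1.577 with every cell weighing the same. For Tnfrsf17 in the whole plasma cell gate it was 0.5224 with 4 markers. In cells of 5000 to 10000 UMIs it was 1.823 for Tnfsf13b in neutrophil-like cells, 0.9814 for Tnfrsf13c and 1.007 for Cd40 in B-like cells, and 1.668 for Tnfrsf13b in monocyte or macrophage-like cells. The direction of the small differences of Tnfrsf13c and Cd40 in B-like cells thus did not hold in that window of depth. The ratio of Tnfrsf13b in B-like cells lay between 1.062 and 1.089 under all 10 alternatives. Pathway genes past the fold in B-like cells numbered 1 at a fold of 2 and 1 with at least 50 summed counts. In Cd4+ T-like cells they numbered 7 at a fold of 2 and 5 without memory or effector cells, where 47 genes of the lists were measured. The cause of these changes was not tested. Neutrophil-like, plasma cell-like and CKO memory or effector cells are too few for ratios near 1 to be told apart.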

Other observations

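Tnfrsf13b in the 50 CKO neutrophil-like cells stood at 32.5 CPM, but 14 of its 22 UMIs lay in 1 cell. In WT neutrophil-like cells the level was 23.4 CPM, from 17 UMIs in 15 of 59 cells with at most 2 in a cell. Conventional dendritic cell-like cells had 63.5 CPM of Tnfrsf13b in CKO and 40.2 CPM in WT, a ratio of 1.58 (0.956 to 2.63) that spanned 1. Trdc+ T-like cells, the gamma delta type, were 73 in CKO and 29 in WT and had 8 UMIs of Tnfrsf13b in CKO and 6 UMIs in WT, a ratio of CPM of 0.426 (0.1296 to 1.49) that spanned 1 on fewer than 20 summed UMIs.

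In Fcer2a+ B-like cells binned by depth, the level of Tnfrsf13b between 2500 and 4000 UMIs per cell was 297 CPM in 2113 CKO cells and 263 CPM in 1296 WT cells. Between 4000 and 5500 UMIs it was 298 CPM in 1791 CKO cells and 262 CPM in 1786 WT cells. Between 5500 and 7000 UMIs per cell it was 263 CPM in 562 CKO cells and 268 CPM in 518 WT cells. For Cd40 the values between 2500 and 4000 UMIs were 75.9 CPM in CKO and 92.4 CPM in WT, and between 5500 and 7000 UMIs 69.6 CPM in CKO and 68.0 CPM in WT. In the deepest bin, 7000 to 10000 UMIs per cell, Tnfrsf13b stood at 285 CPM (268 to 303) in 443 CKO cells and 249 CPM (232 to 267) in 380 WT cells, and Cd40 at 66.0 CPM in CKO and 63.5 CPM in WT. The difference in Tnfrsf13b was thus present in these bins except that of 5500 to 7000 UMIs. Tnfrsf13c in the bins from 2500 UMIs upward, from the shallowest, stood at 359, 384, 356 and 347 CPM in CKO. In WT it stood at 347.5, 364, 354 and 328 CPM. Between 1000 and 2500 UMIs its order was the other way, with 390 CPM in 81 CKO cells and 455 CPM in 43 WT cells. The intervals of Tnfrsf13c in the 2 libraries overlapped in every bin.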
